A study of Homo sapiens with 36 samples.

Results

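The CCN matricellular genes and the targets of the transcriptional cofactor YAP were followed in EA.hy926 cells given PFOA (perfluorooctanoic acid), a long-lived industrial surfactant. The 8 genes were CCN1, CCN2, CCN5, ANKRD1, AMOTL2, AXL, YAP1 and WWTR1, found by symbol in 3 tables that list 47137 genes, 18048 of them with values, as normalised read counts. The 8 were selected on their place in the pathway with the fold changes of these same dose against vehicle comparisons known, so their values describe the libraries and are not independent evidence of a response. EA.hy926 is a hybrid line that keeps endothelial traits, made by fusing umbilical vein endothelial cells with a lung carcinoma line. Messenger RNA was sequenced after 48 h at 1, 10 or 100 µM PFOA, and after 6 or 12 weeks at 1, 10 or 100 nM. Each of the 3 exposure times had its own vehicle group with 0.05% DMSO. All 12 groups held 3 libraries that the labels call biological replicates of the wild-type line. Dishes of the 48 h exposure were rinsed and lysed in place, whereas cells of the long exposures were pelleted while being passaged, so dose range and handling cannot be told apart from exposure time. The question addressed was how transcript levels depend on PFOA concentration.

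Background on the pathway is as follows. YAP, encoded by YAP1, and its paralogue TAZ, encoded by WWTR1, are cofactors that enter the nucleus when the Hippo kinases LATS1 and LATS2 are inactive. There they bind TEAD factors and switch on genes for growth, adhesion and matrix contact. CCN1 (formerly CYR61) and CCN2 (formerly CTGF), the usual readouts of YAP activity, encode secreted proteins that bind integrins. CCN5 (formerly WISP2) belongs to the same family but its protein lacks the C-terminal cystine-knot module and has been described as an antagonist of CCN2. ANKRD1 encodes a stretch-responsive ankyrin repeat protein, AMOTL2 a junctional scaffold that holds YAP outside the nucleus, and AXL a receptor tyrosine kinase for the ligand GAS6. In endothelium the pathway responds to cell density, matrix stiffness and flow.

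In the RefSeq annotation of GRCh38.p14, CCN1 lies on chromosome 1 from 85580761 to 85583950, CCN2 on chromosome 6 from 131948176 to 131951372 and CCN5 on chromosome 20 from 44714861 to 44727811. ANKRD1 lies on chromosome 10 from 90912096 to 90921087, AMOTL2 on chromosome 3 from 134355345 to 134375417 and AXL on chromosome 19 from 41219223 to 41261766. YAP1 spans 102110447 to 102233424 on chromosome 11 and WWTR1 149517235 to 149724788 on chromosome 3. All are protein-coding. Antisense and other annotated genes that overlap CCN2, CCN5, AMOTL2, AXL, YAP1 and WWTR1 held no values in the tables, and whether reads were counted by strand is not given in the sources used here. Promoter sequences from RefSeq were matched for 6 of the 8 genes, and the window listed first was used for each. The 250 bases before the annotated start are shown for CCN2 (chr6:131951373-131951622, minus strand) and ANKRD1 (chr10:90921088-90921337, minus strand), since these held more than 1 copy of the TEAD core sequence GGAATG, searched on both strands and marked in capitals.
CCN2: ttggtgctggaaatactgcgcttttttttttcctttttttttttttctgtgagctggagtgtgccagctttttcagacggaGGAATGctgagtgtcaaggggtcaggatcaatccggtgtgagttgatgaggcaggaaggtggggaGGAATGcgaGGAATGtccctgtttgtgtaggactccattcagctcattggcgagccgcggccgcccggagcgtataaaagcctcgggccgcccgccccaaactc
ANKRD1: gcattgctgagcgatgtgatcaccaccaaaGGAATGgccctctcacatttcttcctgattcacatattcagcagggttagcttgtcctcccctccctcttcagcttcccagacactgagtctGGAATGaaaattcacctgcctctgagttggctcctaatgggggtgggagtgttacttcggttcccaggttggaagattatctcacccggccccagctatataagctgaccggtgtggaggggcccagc

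CCN2 held 3 TEAD cores, which began 169, 104 and 95 bases before the start. ANKRD1 held 2, which began 220 and 128 bases before it, and 1 match to the AP-1 sequence TGANTCA, which shares no base with either core. YAP1 held 1 TEAD core, and AMOTL2, AXL and WWTR1 held none in this window. The WWTR1 window (chr3:149703274-149703523, minus strand) precedes a start inside the gene bounds given above, not their outer end. Of 27305 promoter windows of this length, 11.9% held at least 1 core, 0.963% at least 2 and 0.0952% at least 3, while 6.60% held the AP-1 sequence. The CArG box bound by serum response factor was absent from the 6 windows and was present in 1.14% of all. These matches describe letters in a short window and are not binding sites.

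Recovered reads per library ran from 17815292 to 19466331. Among the 8 genes CCN5 rested on the fewest reads, and its lowest library had 18 reads at 6 weeks, 31 at 12 weeks and 40 at 48 h. The next lowest were AMOTL2 with 76 reads and YAP1 with 105 in 1 library at 48 h. Endothelial identity was checked with 11 marker genes, of which 9 had a mean of at least 10 in each table, among them PECAM1, CDH5 and TIE1. KDR did not reach it, with means of 2.34, 2.07 and 1.39 at 48 h, 6 weeks and 12 weeks. CLDN5 was at 0 in every library at 6 and 12 weeks. Leukocyte markers did not reach a mean of 10 in any table. Of 6 epithelial markers 4 reached it, with KRT7, KRT8 and KRT18 among them and CDH1 at 0 at 6 and 12 weeks. The summed epithelial markers ran from 20567.9 to 40884 in the 10 nM libraries at 6 weeks and from 28593 to 55545 in the 100 nM libraries, against 74296 to 142645 in vehicle libraries, and their part in the results was not tested. Transcripts of 84 ribosomal protein genes took 9.37% to 22.2% of the reads of a library. At 6 weeks this share was 13.4%, 9.37% and 10.9% in the 10 nM libraries and 11.7%, 13.1% and 16.3% in the 100 nM libraries, all below the 19.4%, 17.9% and 17.2% of the vehicle libraries. Replicate 1 at 1 nM stood apart from its group with 11.4%, against 18.5% and 19.0% in the other 1 nM libraries. Mitochondrially encoded transcripts took 7.82%, 5.99% and 6.08% of the reads in the 10 nM libraries, below the 9.93%, 11.4% and 9.24% of the vehicle libraries, and 6.27%, 7.02% and 9.70% in the 100 nM libraries, which overlapped with vehicle. The part of the mitochondrial share in the 6-week values was not tested.

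Set per kilobase of the longest GENCODE transcript, the normalised counts of the 48 h vehicle group were 2436 for CCN1, 2008 for ANKRD1, 1705 for CCN2 and 1353 for AXL. The cofactors were lower, at 342 for WWTR1 and 149 for YAP1, with AMOTL2 at 136 and CCN5 at 41.8. All 8 genes had a mean above 10 in each table, and CCN5 was the lowest with means of 129, 46.4 and 125 at 48 h, 6 weeks and 12 weeks. The spread between libraries of a table was widest for CCN5 and narrowest for AXL. At 6 weeks the highest CCN5 library was 11.3-fold above the lowest and the highest AXL library 1.53-fold above the lowest, with YAP1 at 6.78-fold. Over the group means of all 12 groups, CCN1 ran from 15097 ± 6345 at 10 nM for 12 weeks down to 3413 ± 2358 at 10 µM for 48 h (SD, n = 3), and each group overlapped the next in this order within 1 SD. The same held for CCN2, CCN5, ANKRD1, AMOTL2, YAP1 and WWTR1. AXL alone had gaps: its 12-week groups, at 16339 to 20319.7, lay above all others, and the groups at 1 µM and vehicle for 48 h, at 6549 and 6409.6, lay below them. The tables were deposited separately, so no test was made across exposure times.

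No dose changed any of the 8 genes past the threshold. In each of the 9 comparisons with vehicle, limma called 0 of the 8 genes and 0% of all genes tested at an adjusted p under 0.05. At an unadjusted p under 0.05 it listed 4 of the 8 as higher at 6 weeks and 10 nM, where 21.8% of all genes were, and AMOTL2 as higher at 6 weeks and 100 nM (5.66%). CCN5 was listed as lower at 12 weeks and 100 nM (1.45%) and at 12 weeks and 1 nM (0.106%), and 0 of the 8 were listed in the other 5 comparisons, against 0.049%, 2.82% and 1.99% of all genes at 1, 10 and 100 µM for 48 h, 0.254% at 1 nM for 6 weeks and 1.37% at 10 nM for 12 weeks. edgeR on the recovered reads called 0 genes throughout, and DESeq2 called 4, namely CCN1, CCN2, AMOTL2 and YAP1, at 6 weeks and 10 nM, where it called 30.4% of all genes, and 0 of the 8 in the other comparisons with vehicle. That comparison had the lowest adjusted p of the 8 genes, 0.0953 with limma. The outcome depended on the 1 nM libraries, which are in neither group but add to the shared estimate of spread. Without 1 nM replicate 1 limma called 5946 genes at 10 nM (48.7%) and the same 4 of the 8. Without 1 nM replicate 3 it called 3203 genes (26.3%), with AMOTL2 and YAP1 among them. With only the 10 nM and vehicle libraries in the fit it called 4742 genes (38.9%), with CCN1, AMOTL2 and YAP1 among them. Since these are bulk libraries, fewer cells expressing a gene and less of its RNA per cell cannot be told apart.

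The cofactor YAP1 had higher counts after 6 weeks at 10 or 100 nM than in vehicle. Its counts were 1002, 1865 and 1494 in the 10 nM libraries, against 349, 579 and 619.8 in vehicle libraries. The 100 nM libraries had 1345, 1049 and 832, and the 1 nM libraries 1457, 518 and 275. All libraries at 10 and 100 nM lay above all vehicle libraries, and at 1 nM replicate 1 reached their level while the others lay within or below the vehicle range. The log2 fold change was 1.49 ± 0.51 (SE) at 10 nM (95% interval 0.38 to 2.61, adjusted p = 0.0953), 1.07 ± 0.51 at 100 nM (adjusted p = 0.272) and 0.24 ± 0.51 at 1 nM. At 12 weeks YAP1 stood at 1073, 1255 and 2339 in the 100 nM libraries, against 865, 357 and 1205 in vehicle libraries, and the groups overlapped. Its 12-week fold changes were 0.38 ± 0.56, 0.77 ± 0.56 and 1.03 ± 0.56 at 1, 10 and 100 nM. Without vehicle replicate 2, the lowest of its group, the value at 100 nM was 0.52. At 48 h YAP1 counts at 10 µM spread from 183 to 1706, on both sides of the 545 to 998 of vehicle, with a fold change of -0.52 ± 0.71, and 0.02 with edgeR.

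WWTR1, which encodes the second cofactor TAZ, showed smaller differences. Its counts at 6 weeks were 1110.0, 2241 and 1690.4 at 10 nM, against 1133, 982 and 1362 in vehicle. Replicate 1 at 10 nM fell within the vehicle range, so the groups overlapped. The fold change was 0.49 ± 0.28 (adjusted p = 0.169, 95% interval -0.11 to 1.09), and the other 8 comparisons gave -0.07 to 0.22. Counts of WWTR1 exceeded those of YAP1 in all libraries at 6 weeks. At 6 weeks the ratio of WWTR1 to YAP1 counts was 1.11, 1.20 and 1.13 in the 10 nM libraries and 1.04, 1.19 and 1.51 in the 100 nM libraries, against 3.25, 1.70 and 2.20 in vehicle libraries. These ratios do not overlap with vehicle at either dose, and the smallest p an exact permutation test of 3 against 3 allows is 0.1. At 1 nM they were 1.06, 2.52 and 4.31. The part of the ribosomal protein share in this ratio was not tested. At 12 weeks the ratio was 0.825, 0.969 and 0.529 at 100 nM, against 1.29, 2.62 and 0.948 in vehicle, with overlap.

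Among the matricellular genes, CCN1 had the highest mean count in all groups but those at 10 and 100 µM for 48 h, where CCN2 was higher. CCN1 counts were higher at 10 and 100 nM than in vehicle after 6 weeks. At 6 weeks CCN1 counts were 13911, 11489.8 and 13037 in the 10 nM libraries, against 3435, 6399 and 7453 in vehicle libraries. The 100 nM libraries had 12633, 11283 and 8398 and the 1 nM libraries 11270.0, 3556 and 3738. Every library at 10 and 100 nM was above every vehicle library, and 1 nM replicate 1 again stood with the higher doses. The log2 fold change was 1.22 ± 0.44 at 10 nM (adjusted p = 0.0953, 95% interval 0.26 to 2.19) and 0.96 ± 0.44 at 100 nM (adjusted p = 0.272). At 12 weeks the counts were 8175, 20638 and 16478 at 10 nM and 14409, 9775 and 20777 at 100 nM, against 7450.5, 4934 and 12269 in vehicle. Both doses overlapped with vehicle, with fold changes of 0.87 ± 0.46 and 0.90 ± 0.46 (adjusted p = 0.655 and 0.751). At 48 h the values ran the other way at the upper doses. CCN1 counts were 2745, 2420.0 and 7144 at 100 µM and 2499.5, 6090.4 and 1648 at 10 µM, against 5877, 5764 and 5094 in vehicle, with fold changes of -0.62 ± 0.48 and -0.93 ± 0.48. Within each of these doses 1 library lay above all vehicle libraries and the others below them, so the groups overlapped. Both high libraries, 100 µM replicate 3 and 10 µM replicate 2, had a lower ribosomal protein share than the 4 low ones, which had 17.9% to 20.9%.

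CCN2, a matrix-inducing growth factor of the same family, differed less between doses. It had 8101, 7640.2 and 8683 counts at 10 nM for 6 weeks, against 3721, 5624 and 5564 in vehicle, and 7865, 6460.1 and 6212 at 100 nM. Both doses lay above vehicle without overlap. The fold change was 0.74 ± 0.28 at 10 nM (adjusted p = 0.0953) and 0.48 ± 0.28 at 100 nM (adjusted p = 0.275), and 0.04 ± 0.28 at 1 nM. At 48 h the 3 doses gave 0.06 ± 0.30, -0.05 ± 0.30 and -0.03 ± 0.30 from 1 to 100 µM, and at 12 weeks -0.03 ± 0.36, 0.31 ± 0.36 and 0.27 ± 0.36 from 1 to 100 nM. The interval of the 12-week value at 100 nM, -0.51 to 1.05, includes the size seen at 6 weeks. The ratio of CCN1 to CCN2 counts at 6 weeks was 1.72, 1.50 and 1.50 at 10 nM and 1.61, 1.75 and 1.35 at 100 nM, against 0.923, 1.14 and 1.34 in vehicle. These did not overlap, but at 100 nM only by the narrow step from 1.34 to 1.35. At 1 nM the ratios were 1.65, 0.716 and 0.994. The smallest p an exact permutation test of 3 against 3 allows is 0.1. The part of the ribosomal protein share in this ratio was not tested.

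CCN5 had lower counts than vehicle at all 3 doses after 12 weeks. At 12 weeks its counts were 106, 36.6 and 35.2 in the 100 nM libraries, against 126, 317 and 182 in vehicle libraries. The 10 nM libraries had 224, 107 and 101 and the 1 nM libraries 85.3, 76.1 and 105. Libraries at 1 and 100 nM lay below all vehicle libraries, and those at 10 nM overlapped with vehicle. The fold change was -1.89 ± 0.49 at 100 nM, with a 95% interval of -2.95 to -0.83 but an adjusted p of 0.751 with limma over all genes, -0.52 ± 0.49 at 10 nM and -1.13 ± 0.49 at 1 nM. Leaving out 1 library at a time kept the 100 nM value between -2.40 and -1.53, and scaling to total reads gave -1.60. At 6 weeks CCN5 counts were 17.3, 13.3 and 30.6 at 10 nM and 20.0, 26.6 and 47.3 at 100 nM, against 88.9, 19.7 and 89.0 in vehicle. Vehicle replicate 2 was as low as the dosed libraries, so both doses overlapped with vehicle, and the fold changes were -1.45 ± 0.75 and -0.86 ± 0.75 (adjusted p = 0.145 and 0.401). At 48 h the 100 µM libraries were close together at 139.8, 135 and 146, within the 58.9 to 207 of vehicle.

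ANKRD1 and AMOTL2, a pair of direct YAP targets, had higher counts at 10 nM than in vehicle after 6 weeks. AMOTL2 had the highest fold change of the 8 genes over the 9 comparisons. Its counts were 1226, 1287 and 1426 in the 10 nM libraries, against 278, 414 and 515 in vehicle libraries, and 1203, 1029 and 572 in the 100 nM libraries. Both doses lay above vehicle without overlap, and at 1 nM the counts were 1175, 249.9 and 269, with only replicate 1 above vehicle. The fold change was 1.75 ± 0.52 at 10 nM (adjusted p = 0.0953, 95% interval 0.60 to 2.89) and 1.19 ± 0.52 at 100 nM (adjusted p = 0.272). At 12 weeks it was 1.15 ± 0.56 at 10 nM, where replicate 1 at 518 lay far below the others at 1883 and 1616. The value was 1.73 without replicate 1 and 0.80 without replicate 2. At 48 h AMOTL2 gave -0.75 ± 0.62 at 100 µM and -0.96 ± 0.62 at 10 µM, with overlap. ANKRD1 counts at 6 weeks were 4908, 4834 and 5187 at 10 nM and 4832, 4052 and 4194 at 100 nM, against 1219, 3358 and 4117 in vehicle. Only the 10 nM libraries lay above all vehicle libraries, and the fold changes were 0.96 ± 0.49 and 0.76 ± 0.49. Vehicle replicate 1 held the lowest ANKRD1 count of that table, and without it the 10 nM value was 0.42. At 12 weeks ANKRD1 gave 0.72 ± 0.54 at 100 nM, and 0.07 without vehicle replicate 2. At 48 h ANKRD1 counts were 2408, 2132 and 7339 at 100 µM and 2525, 4362 and 1516 at 10 µM, against 4408, 4115 and 3397 in vehicle, with overlap at both doses. Its fold change was -0.63 ± 0.47 at 10 µM and -0.24 ± 0.47 at 100 µM, where the sign turned with 1 library left out (-0.80 without replicate 3 and 0.09 without replicate 2) and with the ribosomal protein share as a covariate (0.20).

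The receptor AXL had higher counts at 10 and 100 µM than in vehicle after 48 h. Its counts were 9347, 10593 and 7373 in the 100 µM libraries and 8479, 6882 and 11187 in the 10 µM libraries, against 6445, 6233 and 6551 in vehicle libraries. Both doses lay above vehicle without overlap, while the 1 µM libraries, at 6237, 6621 and 6789.6, overlapped with it. The fold change was 0.49 ± 0.24 at 100 µM and 0.44 ± 0.24 at 10 µM (adjusted p = 0.993 and 0.96). Scaled to total reads the values were 0.19 and 0.12, where the median of all genes was -0.26 and -0.30. At 6 weeks AXL counts were 7575, 8225 and 8425 at 10 nM, against 11472, 9851 and 7755 in vehicle, with overlap. The fold change was -0.25 ± 0.25 at 10 nM and -0.21 ± 0.25 at 100 nM, but the sign turned with the scaling. Quantile normalization gave 0.47 at 10 nM, and scaling to total reads 0.42, where the median of all genes was 0.72. At 12 weeks AXL gave -0.03 ± 0.30, -0.31 ± 0.30 and -0.04 ± 0.30 at 1, 10 and 100 nM, and 0.25 at 100 nM when scaled to total reads, where the median of all genes was 0.29.

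Counted by overlap, 5 of the 8 genes lay above vehicle in every library at 6 weeks and 10 nM (CCN1, CCN2, ANKRD1, AMOTL2 and YAP1), where 30.6% of all genes did. Below vehicle lay 0 of the 8, against 3630 of all 12201 genes. At 6 weeks and 100 nM 4 lay above (CCN1, CCN2, AMOTL2 and YAP1, against 22.9% of all genes) and 0 below, against 2981 of all 12201 genes. At 48 h only AXL was above at 100 µM (4.32% of all genes) and at 10 µM (2.67%), and at 12 weeks only CCN5 was below at 100 nM (2.57%) and at 1 nM (0.805%). The remaining comparisons had 0 of the 8 outside the vehicle range, against 2.31% of all genes at 1 µM for 48 h, 1.31% at 1 nM for 6 weeks and 3.28% at 10 nM for 12 weeks. The members were chosen with these values known, so the counts are a description.

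**Figure D1:**
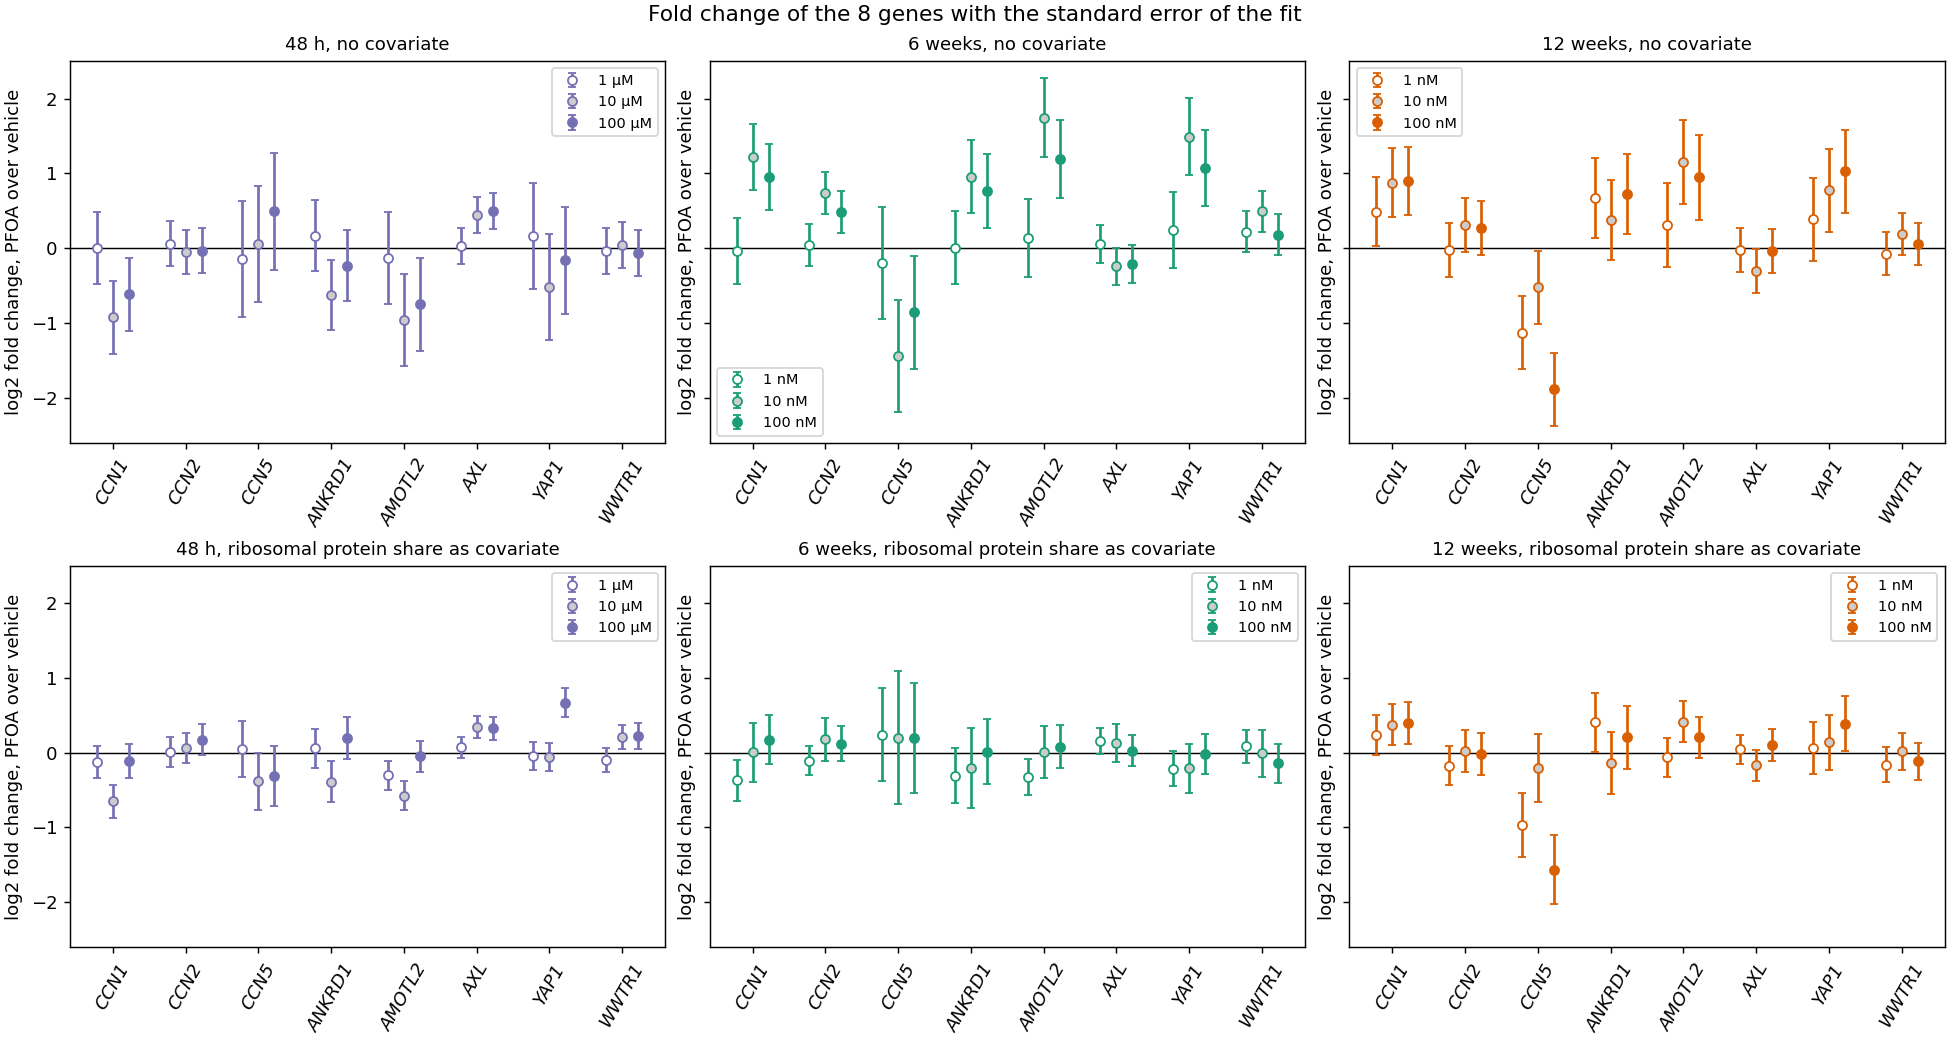
Log2 fold change of each gene over vehicle with its standard error, for 3 doses at each exposure time, from the fit without a covariate (top) and with the ribosomal protein share of the library as covariate (bottom). AMOTL2 at 6 weeks and 10 nM goes from 1.75 in the top row to 0.01 in the bottom row, and CCN5 at 12 weeks and 100 nM from -1.89 to -1.57.

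Levels of the 8 genes varied with the ribosomal protein share of the library. How many of all genes do so as closely was not counted, so this is not shown to be particular to the 8. At 6 weeks and 10 nM limma listed 5365 of 12201 genes at an unadjusted p under 0.05, and 44 with the share as a covariate. At 48 h the number listed rose with the covariate, from 244 to 1853 of 12233 genes at 100 µM and from 345 to 1338 at 10 µM. Within each table the log2 count was compared with that share over 12 libraries. YAP1 was lower where the share was higher (r = -0.917, rho = -0.944 at 48 h, r = -0.962, rho = -0.993 at 6 weeks, r = -0.858, rho = -0.916 at 12 weeks). AMOTL2 did the same (r = -0.928, rho = -0.965, r = -0.957, rho = -0.916 and r = -0.935, rho = -0.888 in the same order), and so did CCN1 (r = -0.858, rho = -0.874, r = -0.890, rho = -0.839 and r = -0.880, rho = -0.888). AXL and CCN5 ran the other way. For AXL r was 0.802, 0.767 and 0.632 with rho 0.685, 0.580 and 0.713. For CCN5 r was 0.846, 0.742 and 0.504 with rho 0.720, 0.685 and 0.524. In permutation tests with 100000 draws, adjusted over 45 relations, p for r was 0.00015, 0.00015 and 0.000771 for YAP1 and 0.00262, 0.00726 and 0.0271 for AXL, before adjustment 1e-05, 1e-05 and 0.00036 for YAP1 and 0.00163, 0.00516 and 0.0259 for AXL, where 1e-05 is the smallest value that the draws can give. CCN5 at 12 weeks did not pass (permutation p = 0.095, adjusted 0.095). In all 45 relations the draws shuffled the 12 libraries across dose groups, so r and its p mix differences between doses with those within them. Without the 2 libraries farthest from the median share, r was -0.904, -0.945 and -0.760 for YAP1. For CCN2, ANKRD1 and WWTR1 r lay between -0.882 and -0.619, and the relation of WWTR1 at 12 weeks rested on the outer libraries (r = -0.297 without them).

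**Figure D2:**
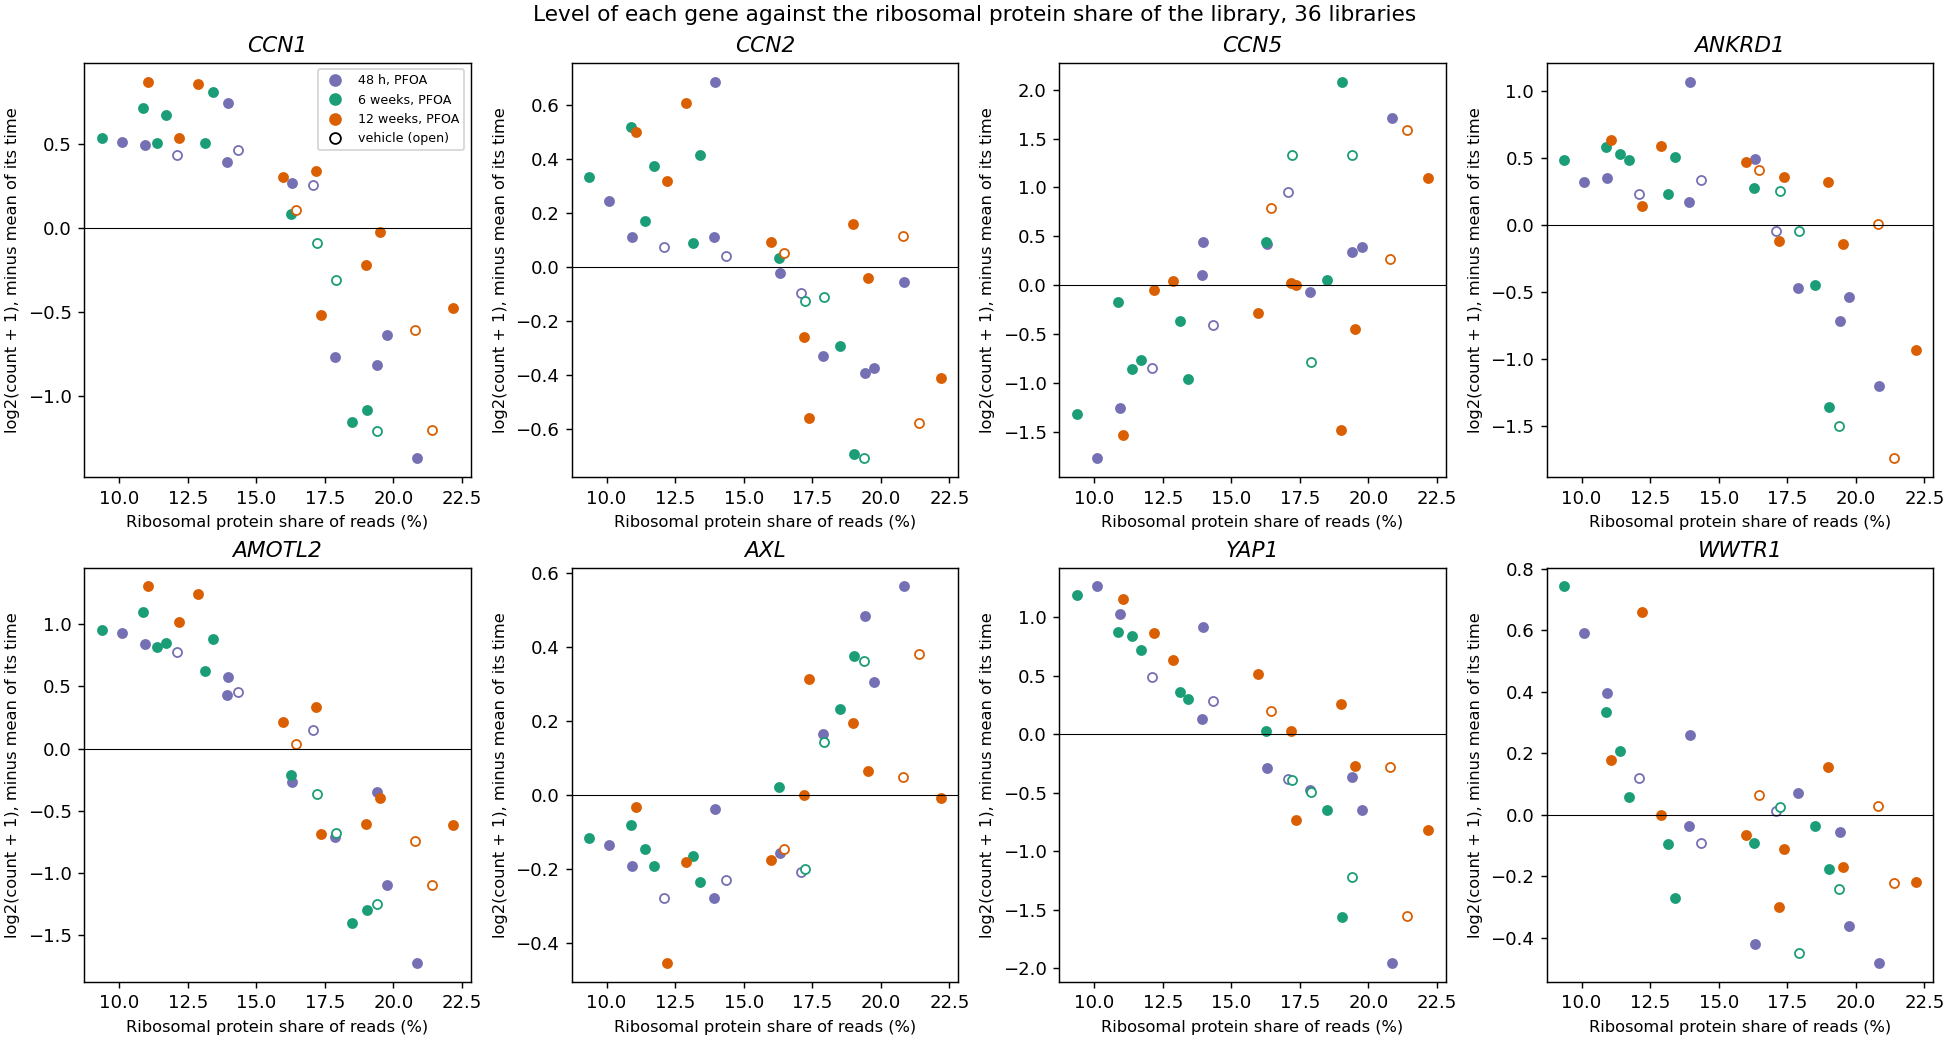
Log2 count of each gene, minus the mean of its exposure time, against the percentage of the library's reads in ribosomal protein genes, 1 point per library and open points for vehicle. AMOTL2, YAP1 and CCN1 fall along the axis at all 3 times, with r of -0.957, -0.962 and -0.890 at 6 weeks, and AXL climbs (r = 0.767).

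With the ribosomal protein share as a covariate, the 6-week fold changes of the targets shrank. At 10 nM CCN1 gave 0.01 ± 0.39, CCN2 0.18 ± 0.29, ANKRD1 -0.21 ± 0.54, AMOTL2 0.01 ± 0.35 and YAP1 -0.21 ± 0.33. CCN5 gave 0.20 ± 0.89, where the sign turned. At 100 nM the values were 0.18 ± 0.32 for CCN1, 0.08 ± 0.29 for AMOTL2 and -0.02 ± 0.27 for YAP1. Because the shares at these doses do not overlap with those in vehicle, dose and share cannot be told apart at 6 weeks. Elsewhere the shares overlapped. CCN5 at 12 weeks and 100 nM was -1.57 ± 0.46 with the covariate (unadjusted p = 0.00493, adjusted p = 1 with limma), and AXL at 48 h was 0.33 ± 0.15 at 100 µM and 0.35 ± 0.15 at 10 µM. YAP1 at 48 h and 100 µM was 0.67 ± 0.20 (limma adjusted p = 0.235), against -0.17 ± 0.71 without it. CCN1 was -0.65 ± 0.22 at 10 µM and -0.12 ± 0.23 at 100 µM with the covariate, and AMOTL2 -0.57 ± 0.20 and -0.05 ± 0.21. Limma adjusted p was 0.333 for CCN1 and 0.349 for AMOTL2 at 10 µM, and 0.330 and 0.416 for AXL at 100 and 10 µM. In this fit 1853 of 12233 genes had an unadjusted p under 0.05 at 100 µM and 1338 at 10 µM, and 0 were called. CCN5 at 48 h turned sign, to -0.31 ± 0.40 at 100 µM. At 12 weeks the fold changes of the targets were smaller as well. CCN1 was 0.38 ± 0.28 at 10 nM and 0.40 ± 0.28 at 100 nM, AMOTL2 0.41 ± 0.27 and 0.21 ± 0.27, YAP1 0.14 ± 0.37 and 0.39 ± 0.37, and ANKRD1 -0.14 ± 0.42 and 0.20 ± 0.42. The part of library composition in these values was not tested beyond this fit.

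CCN1, CCN2, ANKRD1 and AMOTL2 varied together with YAP1 across libraries, while AXL and CCN5 ran the other way. Over the 12 libraries of a table, r with YAP1 was 0.858, 0.909 and 0.922 for CCN1 and 0.937, 0.939 and 0.872 for AMOTL2 at 48 h, 6 weeks and 12 weeks, with rho of 0.923, 0.825 and 0.895 and of 0.972, 0.923 and 0.895. Permutation p for r was at most 0.00017 in these 6 relations and at most 0.00045 after adjustment over the 45, and r stayed at or above 0.774 without the 2 outermost libraries. CCN2 had r of 0.621, 0.936 and 0.892 and ANKRD1 0.827, 0.899 and 0.820 in the same order. Their highest adjusted permutation p for r was 0.0351, for CCN2 at 48 h. Without the 2 outermost libraries their lowest r was 0.618, for ANKRD1 at 12 weeks. CCN5 had r of -0.836, -0.814 and -0.699, and -0.623, -0.580 and -0.348 without the 2 outermost libraries. AXL had r of -0.703, -0.826 and -0.744 with YAP1 and rho of -0.524, -0.587 and -0.734. Adjusted permutation p was 0.0116, 0.00209 and 0.0075 for r, and 0.084, 0.0518 and 0.0129 for rho, which passed at 12 weeks alone. Without the 2 outermost libraries r was -0.535, -0.595 and -0.744. Both sides of these relations also followed the ribosomal protein share. How many of all genes follow YAP1 as closely was not counted, so the relations are not shown to be particular to the targets. By a rule that ranked 10387 genes by r over the 36 libraries, centred by table, the genes most like CCN1 were MACROH2A1 (0.970), DUSP11 (0.968), RRS1 (0.966), NCK2 (0.963) and DAZAP2 (0.960). Those most like CCN2 were ACADSB (0.905), BMP6 (0.903), MECOM (0.902), LARP1B (0.893) and CLDN11 (0.889). None is on the list of 17 further YAP and TEAD targets, but that list is short beside 10387 genes, so nothing is read from this.

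Other genes of the pathway were read at 6 weeks and 10 nM from lists, and limma called 0 of them. Of 17 further YAP and TEAD targets, 16 were tested, 14 had a higher and 2 a lower value, and the median log2 fold change was 0.85, beside 0.05 over all 12201 genes. Among them were CRIM1, a transmembrane regulator of growth factors, at 1.80 ± 0.60, F3, the coagulation initiator tissue factor, at 1.76 ± 0.62, and LATS2, a Hippo kinase, at 1.41 ± 0.45 (adjusted p = 0.0953 for all 3). Where 6316 of all 12201 genes had a higher value, 16 of 17 Hippo kinases and cofactors did, with a median of 1.12. These included LATS1 at 1.60 ± 0.67, MOB1A at 1.14 ± 0.38, and the exception NF2, the upstream tumour suppressor merlin, at -0.83 ± 0.33. LATS2 and PTPN14 stand on both lists. Of the 4 TEAD factors 1 had a higher and 3 a lower value (median -0.41), with TEAD1 at 2.04 ± 0.57 and TEAD4 at -1.23 ± 0.49. The actin and serum response factor targets had a median of -0.13, with 6 of 13 higher. Among these 13 the contractile genes TAGLN and TPM2 had -1.42 ± 0.51 and -1.70 ± 0.60 and the focal adhesion gene VCL 1.36 ± 0.46. With the ribosomal protein share as a covariate the medians were -0.14 for the further YAP targets and -0.24 for the Hippo genes.

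At 12 weeks and 10 nM the further YAP targets had a median of 0.47 with 15 of 16 higher, and the Hippo genes 0.68 with 15 of 17. Over all 12304 genes the median was 0.02, with 6286 higher. With the ribosomal protein share as a covariate the medians of the YAP targets and the Hippo genes were 0.07 and 0.09. After 48 h at 100 µM the medians were -0.21 for the targets, with 6 of 16 higher, and 0.00 for the Hippo genes. Over all 12233 genes the median was 0.03, with 6565 higher. With the covariate the targets and the Hippo genes had medians of 0.14 and 0.32, so that the sign of the targets' median turned. Limma called 0 genes of any list in these comparisons. Of the other CCN genes only CCN3 passed the filter on low values, and its counts at 6 weeks were 44.2, 54.5 and 42.1 at 10 nM, against 12.9, 29.6 and 19.2 in vehicle, a fold change of 1.22 ± 0.37 (adjusted p = 0.0953). With the ribosomal protein share as a covariate the CCN3 value was 0.53.

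Slopes per dose step, through vehicle and the 3 doses, were tested in the same way. At 6 weeks they were 0.41 ± 0.14 for CCN1, 0.21 ± 0.09 for CCN2, 0.52 ± 0.17 for AMOTL2 and 0.45 ± 0.16 for YAP1 on the log2 scale (adjusted p = 0.0979, 0.101, 0.0979 and 0.0979 with limma). Limma called 0 of the 8 genes and 0% of all genes in each trend, and at an unadjusted p under 0.05 it listed AXL as higher at 48 h (1.37% of all genes), CCN1, CCN2, AMOTL2 and YAP1 as higher at 6 weeks (21.6%) and CCN5 as lower at 12 weeks (1.25%). edgeR called 0 of the 8, and DESeq2 called CCN1 and AMOTL2 at 6 weeks, where it called 26% of all genes. Without 1 nM replicate 1, limma called 7084 genes at 6 weeks (58.1%), with CCN1, CCN2, ANKRD1, AMOTL2 and YAP1 among them. At 12 weeks the slope of CCN5 was -0.51 ± 0.15 (adjusted p = 0.657), and at 48 h that of AXL 0.19 ± 0.08 (adjusted p = 0.808). Group means were not ordered by dose at 6 weeks, where those of CCN1, CCN2, ANKRD1, AMOTL2, YAP1 and WWTR1 were all highest at 10 nM.

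Whether fold changes differed between 12 and 6 weeks was tested as a difference of fold changes over 24 libraries. Limma called 0 of the 8 genes and 0% of 12037 genes at any dose (lowest adjusted p of the 8 genes 0.906), and 0 of the 8 had an unadjusted p under 0.05, against 0.208%, 0.349% and 0.565% of all genes at 1, 10 and 100 nM. At 100 nM the 12-week minus the 6-week fold change was -0.06 ± 0.65 for CCN1, -0.25 ± 0.82 for AMOTL2 and -0.05 ± 0.80 for YAP1. At 10 nM it was -0.35 ± 0.65, -0.60 ± 0.82 and -0.72 ± 0.80 in the same order. The furthest from 0 were those of CCN5, at -0.93 ± 0.95, 0.92 ± 0.95 and -1.02 ± 0.95 for 1, 10 and 100 nM. The 95% interval was -2.39 to 0.95 for YAP1 at 10 nM and -0.74 to 0.62 for AXL at 10 nM, so the test does not show that the exposures were equal.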

How the data were processed

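Libraries of messenger RNA from 36 samples were read as pairs on a DNBSEQ instrument, per the labels' protocols. The authors deposited a normalised signal for each gene: the number of reads over a size factor of the library. GRCh38.p14 was the build, and HISAT, Bowtie2 and DESeq2 the tools, per the submitters' processing notes. Neither strand use nor the tool that counted reads is named in the labels. Whole reads were recovered from the steps between values, and 100% of values came out within 0.01 of a whole number. On these reads edgeR called 0 genes in each dose comparison and DESeq2 0 to 3706.

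Signals were analysed with limma 3.58.1 in R 4.3.3 on log2(signal + 1), 12 libraries of an exposure time to a fit, for genes with a mean of at least 10 (12233 at 48 h, 12201 at 6 weeks, 12304 at 12 weeks). This scale understates changes of low genes. Tests were two-sided, with Benjamini-Hochberg adjustment over all genes tested and a threshold of 0.05. edgeR 4.0.16 and DESeq2 1.42.0 were run on the recovered reads, and relations were computed with scipy 1.17.1. Other pseudocounts, filters, scalings, a replicate block, a ribosomal share covariate, only the 2 groups compared and left-out libraries were also tried, and scaling to total reads was added after seeing the data. The fit was tested on simulated counts. The 8 genes and the gene lists were chosen with earlier results of these data known, and named genes are those 8, the listed genes and the 5 genes most like CCN1 or CCN2.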

Additional observations from a re-analysis of the deposited data

How the results depend on the processing

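Limma called 0 genes and 0 of the 8 genes in all 15 tests, and most alternatives gave the same count. At 6 weeks and 10 nM the genes called numbered 3706 with DESeq2, with 4 of the 8 among them, and 4742 with only the 2 groups compared in the fit, with 3 of the 8. Leaving out 1 library at a time gave 0 to 5946 genes and 0 to 4 of the 8 there, 0 to 1 gene at 6 weeks and 1 nM, and 0 to 7084 genes and 0 to 5 of the 8 for the 6-week trend. The upper counts came without 1 nM replicate 1, and 3203 genes with AMOTL2 and YAP1 without 1 nM replicate 3. For the 6-week trend DESeq2 called 3174 genes and 2 of the 8, and quantile normalization 1 gene. DESeq2 also called 3 genes at 6 weeks and 100 nM, 2 at 6 weeks and 1 nM, 1 at 48 h and 10 µM, 1 at 48 h and 1 µM, 1 at 12 weeks and 100 nM, 2 at 12 weeks and 10 nM and 2 for the 12-week trend. The cause of these differences was not tested. Changes of the filter, the pseudocount and the total-read scaling gave 0 called in all, but that scaling, added after seeing the data, raised the median of all genes at 6 weeks and 10 nM by 0.66 on the log2 scale, the widest move over the 15 tests.

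Same-numbered libraries deviated together (r over 0.1) in 7 of 18 pairs at 48 h, 5 of 18 at 6 weeks and 8 of 18 at 12 weeks. At 48 h r was 0.892 between replicates 2 at 10 and 1 µM, and -0.892 between replicates 3 at 100 and 10 µM. At 12 weeks r was 0.874 between replicates 3 at 100 and 10 nM, and -0.846 between replicates 1 at 10 and 1 nM. Differently numbered libraries also deviated together, such as 100 µM replicate 3 and 10 µM replicate 2 (r = 0.889). Whether replicate numbers pair the libraries was therefore not settled. With the replicate block 0 genes and 0 of the 8 were called in every test. Of 2945 recomputed fold changes and slopes of the 8 genes, 2890 stayed near the reported value and 55 moved further. Near meant within 1 SD between libraries of the fit, with a smaller limit for slopes. Of the 55, 21 came with the ribosomal share covariate and 19 with scaling to total reads. Some settings cannot move a fold change and still count among the 2890. These include another filter, the replicate block, and libraries left out of groups not compared. Values could also shift within the limit, as ANKRD1 at 6 weeks and 10 nM did, from 0.96 to 0.42 without vehicle replicate 1. CCN5 is limited by its low counts.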

Other observations

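Receptors and partners of the CCN proteins and of AXL were also read at 6 weeks and 10 nM. Of 9 CCN receptor genes, 5 had a higher and 4 a lower value than vehicle (median 0.69). The integrin subunits ITGB1, ITGAV and ITGA6 had log2 fold changes of 1.45 ± 0.48, 1.21 ± 0.48 and 1.63 ± 0.62, while ITGA5, the fibronectin receptor subunit, had -1.02 ± 0.49. The AXL paralogue MERTK had 1.77 ± 0.50 and the AXL ligand gene GAS6 -1.25 ± 0.55, and TYRO3 -0.20 ± 0.38. In the TGF-beta axis, which also induces CCN2, 7 of 8 genes had a higher value (median 0.88), with the inhibitor SMAD7 at 2.03 ± 0.70 and the receptor TGFBR2 at 1.30 ± 0.48, against TGFB1 at -1.42 ± 0.59. The median over all genes was 0.05, and 6316 of 12201 had a higher value. With the ribosomal protein share as a covariate the list medians were -0.06, 0.30 and -0.07 for the CCN receptors, the AXL family and the TGF-beta axis. Limma called 0 of these genes, and the lowest adjusted p was 0.0953.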
